A study of Mus musculus with 82 samples.

Results

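The contractile apparatus of smooth muscle and the target genes of serum response factor (SRF) were followed through RNA-sequencing of aortic vascular smooth muscle cells (aVSMC). A list of 32 genes, named for their function in smooth muscle and adhesion and not by a cut-off on their values, was read from the 55401 genes in the count table and divided into 3 groups. This list and the other gene lists below were chosen with earlier results of these data known. Counts set beside the share of all genes are therefore descriptions. The contractile group held 18 genes (Acta2, Actg2, Myh11, Smtn, Lmod1, Myl9, Mylk, Des, Ppp1r14a, Ppp1r12b, Synpo2, Tpm2, Itga8, Pln, Kcnmb1, Pdlim3, Pgm5 and Nexn), most of which mark differentiated smooth muscle. The general group held 12 SRF targets and adhesion genes that many adherent cells express (Myl6, Cald1, Tpm4, Cnn2, Vcl, Actn1, Pdlim7, Csrp1, Tns1, Fhl2, Zyx and Tgfb1i1). The regulators were Srf itself and Myocd, which encodes its cofactor myocardin.

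SRF binds a short A/T-rich element, the CArG box, near its target genes, and its cofactors set which of them are read: myocardin drives the contractile genes of smooth muscle, the myocardin-related transcription factors respond to actin assembly, and the ternary complex factors are phosphorylated by ERK1/2 and serve the immediate-early genes. The thromboxane receptor TP and the angiotensin receptor AT1R couple to calcium signaling, while the epidermal growth factor receptor EGFR signals strongly through ERK1/2. Vascular smooth muscle loses contractile gene expression in culture and during vessel repair.

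The cells were primary cultures from the aortas of C57BL/6 mice, grown with serum, EGF and other supplements. They were then starved of all of these for 24 h and incubated in plain medium with 10 µg/L EGF, 10 nM AngII (angiotensin II) or 1 µM U46619, a stable thromboxane analog and TP agonist. A plus sign joins the agents given together. Control cultures had the same starvation and no agent. At 24 h there were n = 6 cultures in each of 7 groups (control, the 3 single agents, EGF+AngII, EGF+U46619 and all 3 agents together, written EGF+AngII+U46619), so that every mouse of the 6 gave 1 culture to every group. The 48 h cultures came in 2 batches of 5 culture sets. Control and EGF were part of both and had n = 10, AngII and EGF+AngII belonged to the EGF/AngII batch alone and U46619 and EGF+U46619 to the EGF/U46619 batch alone, with n = 5 each. The strain was the only genotype given, and the age and sex of the mice are not given in the sources used here. The 48 h labels number 5 mice for 10 culture sets, while the methods give each replicate its own mouse. The 24 h and 48 h libraries differed in mice and in sequencing runs, so that time cannot be told apart from these.

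Total counts per library lay between 16483529 and 20818809 after 24 h and between 19936925 and 33916114 after 48 h. Levels are given as FPM, which are counts per 1000000 of a library size scaled with the trimmed mean of M values. A DEG (differentially expressed gene) passed an FDR of 0.05 by DESeq2 (Wald test) as well as by edgeR (quasi-likelihood test) and had at least 5 FPM on average in 1 of the groups compared. Of the 32 genes, 31 passed the filter on low counts. Pln, the inhibitor of the sarcoplasmic calcium pump, did not pass, with a count in only 1 of the 6 control cultures after 24 h. For U46619 against control, 28 of the 31 also reached 5 FPM. Myocd, Pdlim3 and Kcnmb1 stayed under it and could not be called. The smooth muscle markers Tagln and Cnn1 were listed at 0 in every library, like the 7075 genes on chromosomes 9, X, Y and M, and neither could serve as a check. The tropomyosin Tpm1 and the filamin Flna had no counts either. Acta2, Smtn, Lmod1, Myl9 and Tpm2 were present in every culture, whereas Myh11, the myosin heavy chain that defines differentiated smooth muscle, ranged from 2.68 to 90.9 FPM over the control cultures after 24 h. The libraries of some mice stood apart. The control of culture set 4 of the EGF/AngII batch deviated against the other cultures of its set (r between −0.284 and −0.277 over genes), and its Fhl2 level was 66.5 FPM beside 624 to 652 FPM in the other 3. That level was close to the AngII, EGF and EGF+AngII cultures of set 2 of the same batch (63.6, 66.4 and 63.9 FPM). The control of set 2 had 103.1 FPM. Whether the labels of these controls are right was not tested. They were kept in the 48 h fits of both batches unless left out by name. After 24 h, the cultures of mouse 3 were the lowest of their group for between 10 and 20 of the 32 genes in each of the 7 groups, and after 48 h set 5 of the EGF/U46619 cultures and set 6 of the EGF/AngII cultures were the lowest of their groups for between 20 and 27 genes with U46619, EGF+U46619, AngII and EGF+AngII.

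To show the element by which these genes are commonly grouped, promoters were read from RefSeq (GRCm38.p6, from 250 bases before to 50 bases after each start). A promoter entry existed for 27 of the 32 genes, and Actg2, Myh11, Myocd, Nexn and Tgfb1i1 had none. A CArG box, searched on both strands with no base off, lay in the promoter of 6 of the 27 genes (22.2%), beside 1.81% of all genes with an entry and 1.63% of all 32851 promoters. The 6 genes were Srf, Myl9, Cnn2, Myl6, Vcl and Fhl2. In the contractile group 1 of 15 genes with an entry had the box, and in the general group 4 of 11. With 1 base off allowed, 10 genes (37%) matched, beside 23.8% of all genes, and Acta2, Lmod1, Cald1 and Pdlim3 were added. A match is a description of the letters in this window. Boxes outside it were not searched. The stretches before the start that lie outside annotated exons are printed 5′ to 3′ on the gene's own strand for 5 of the 6 genes, to show the position of the box, which is in capitals. They come from chr17:46556176-46556412 (Srf, minus strand), chr2:156775214-156775419 (Myl9, plus strand), chr10:79988350-79988583 (Cnn2, plus strand), chr14:20929148-20929397 (Vcl, plus strand) and chr1:43163962-43164211 (1 of the starts of Fhl2, minus strand).
Srf: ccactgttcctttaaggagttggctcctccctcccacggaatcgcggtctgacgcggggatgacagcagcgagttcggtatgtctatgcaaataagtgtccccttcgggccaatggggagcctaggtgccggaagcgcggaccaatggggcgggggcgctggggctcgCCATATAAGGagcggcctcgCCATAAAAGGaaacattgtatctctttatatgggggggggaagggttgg
Myl9: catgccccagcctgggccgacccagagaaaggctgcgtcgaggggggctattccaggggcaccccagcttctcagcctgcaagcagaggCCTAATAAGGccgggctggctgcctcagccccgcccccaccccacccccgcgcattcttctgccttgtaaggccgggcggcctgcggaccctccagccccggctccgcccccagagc
Cnn2: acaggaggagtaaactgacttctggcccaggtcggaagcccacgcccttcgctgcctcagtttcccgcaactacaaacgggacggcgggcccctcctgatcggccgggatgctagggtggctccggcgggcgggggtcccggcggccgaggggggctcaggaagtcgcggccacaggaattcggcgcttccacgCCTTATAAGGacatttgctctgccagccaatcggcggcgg
Vcl: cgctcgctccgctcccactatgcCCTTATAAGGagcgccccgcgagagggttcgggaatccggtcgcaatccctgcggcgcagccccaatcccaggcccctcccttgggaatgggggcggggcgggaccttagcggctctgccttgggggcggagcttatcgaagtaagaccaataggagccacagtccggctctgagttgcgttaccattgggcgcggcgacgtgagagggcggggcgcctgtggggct
Fhl2: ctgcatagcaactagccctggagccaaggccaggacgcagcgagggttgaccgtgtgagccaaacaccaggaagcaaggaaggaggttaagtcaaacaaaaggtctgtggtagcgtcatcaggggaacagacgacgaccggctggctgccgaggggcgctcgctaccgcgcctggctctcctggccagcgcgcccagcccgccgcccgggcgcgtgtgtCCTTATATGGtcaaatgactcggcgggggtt
Srf carried 2 boxes, whose first bases lay 82 and 62 bases before the start. The boxes of Fhl2, Cnn2 and Vcl began 31, 56 and 227 bases before it, and that of Myl9 between those of Cnn2 and Vcl. Another start of Fhl2 had a box at 96 bases, which lies within an annotated exon and is not printed. The box of Myl6, at 50 bases, lies within an annotated exon of another transcript and is not printed.

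Levels in the control cultures after 24 h, compared per kb of exon, spanned several orders of magnitude. Acta2, smooth muscle alpha-actin (chromosome 19, 34241090 to 34255590), was highest with 1185 ± 640 FPM per kb (SD, n = 6 mice). The regulatory light chain Myl9 followed with 571 ± 358 FPM per kb, the light chain Myl6 with 496 ± 109 FPM per kb and calponin 2, Cnn2, with 440 ± 81.4 FPM per kb. These 3 differed by less than the SD of Myl9. Gamma smooth muscle actin, Actg2 (chromosome 6, 83512905 to 83536265), had 79.6 ± 90.7 FPM per kb and Myh11 (chromosome 16, 14194535 to 14291372) had 5.71 ± 4.68 FPM per kb. Srf (chromosome 17, 46548329 to 46556175) had 26.8 ± 5.43 FPM per kb, and its cofactor Myocd (chromosome 11, 65176561 to 65269989) had 0.13 ± 0.173 FPM per kb. When the longest transcript was used as length in place of all exons, 9 of the 32 levels moved by more than their SD. Reads with more than 1 possible place were counted too, so the near-identical actins may share counts. The striated muscle actin Acta1 was listed at 0 in the 24 h control and U46619 cultures.

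**Figure D1:**
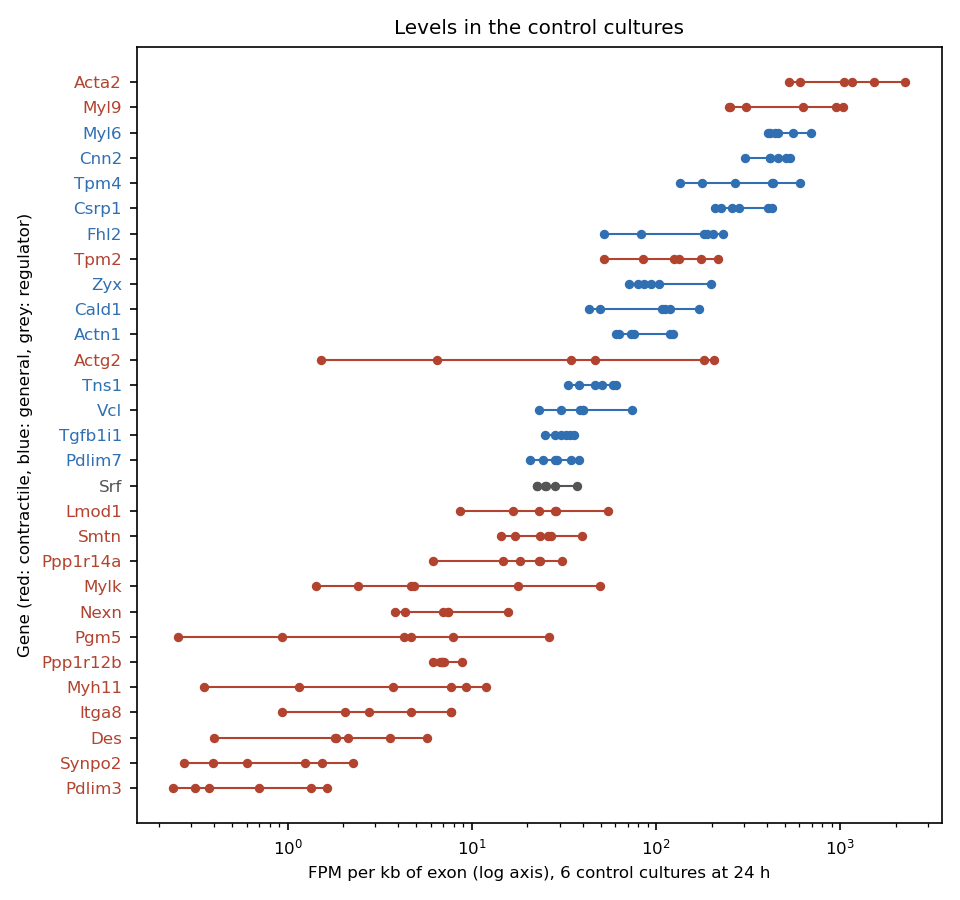
Levels of 29 of the 32 genes in the 6 control cultures after 24 h, in FPM per kb of exon on a log axis, with a line from the lowest to the highest culture (red contractile, blue general, grey regulator; Kcnmb1, Myocd and Pln, each at 0 in at least 1 culture, are left out). Actg2 spans 135-fold between mice, while the general genes stay within 4.49-fold.

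The contractile genes also differed most between mice. The ratio of the highest to the lowest control culture had a median of 6.63 over the 16 contractile genes with a count in every culture and of 2.04 over the 12 general genes, beside 2.48 over 13537 genes. It was 135 for Actg2, 103 for Pgm5, 34.5 for Mylk and 34 for Myh11. Ppp1r12b, a regulatory subunit of myosin phosphatase, had a ratio of only 1.43. In bulk cultures, fewer smooth muscle cells and less RNA per cell cannot be told apart. The summed levels of other cells' markers differed between mice as well. The 6 control cultures had between 4.85 and 1760 FPM of endothelial markers, with the highest value in mouse 6 and Cdh5 listed at 0, between 612 and 3507 FPM of fibroblast markers, with the highest in mouse 3 and Clec3b listed at 0, and between 21.8 and 117 FPM of leukocyte markers, with Ptprc and Adgre1 at 0 in the 6 control cultures. Cdh5 and Clec3b were at 0 in every library of both times, like Tagln and Cnn1, and could not serve as checks. The part of these other cells in the levels of the 32 genes was not tested.

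After 24 h with U46619, both smooth muscle actins, the tropomyosins Tpm2 and Tpm4 and most of the general actin-binding genes rose, whereas Myh11, Myocd and the myosin kinase Mylk did not pass the test in either direction. Of the 28 genes that could be called, 14 were DEGs with higher expression, beside 18% of the 10415 genes tested, and 0 were DEGs with lower expression, beside 19.4%. The 14 were 6 of 15 contractile genes (Acta2, Actg2, Tpm2, Nexn, Myl9 and Lmod1), 7 of 12 general genes (Actn1, Tpm4, Cald1, Myl6, Pdlim7, Csrp1 and Cnn2) and Srf. The median log2-fold change was 0.29 over the contractile genes and 0.70 over the general genes, beside −0.06 over all genes. As the fit held the mouse as a block, each culture was compared with the control culture of its own mouse, and 12 of the 14 genes were higher in 6 of 6 mice and Lmod1 and Csrp1 in 5 of 6.

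Among the actins, Acta2 ranged over the 6 control cultures from 1149 to 4949 FPM with a median of 2424 FPM, and with U46619 from 4293 to 14753 FPM with a median of 11570 FPM. The lowest U46619 culture, that of mouse 3, lay below the highest control culture, that of mouse 5, so the groups overlapped although every mouse had more Acta2 with U46619. The log2-fold change of Acta2 was 2.05 with an SE of 0.39 (edgeR's quasi-likelihood test, FDR 0.000202). Actg2, the actin of visceral smooth muscle that is also found in vessels, ranged from 2.38 to 322 FPM in control (median 63.4 FPM) and from 25.5 to 3337 FPM with U46619 (median 213 FPM). Mouse 2 was highest and mouse 4 lowest in both groups, which overlapped widely. The log2-fold change of Actg2 was 2.68 ± 0.42 (SE, edgeR FDR 2.8e-05), the largest of the 31 genes fitted.

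**Figure D2:**
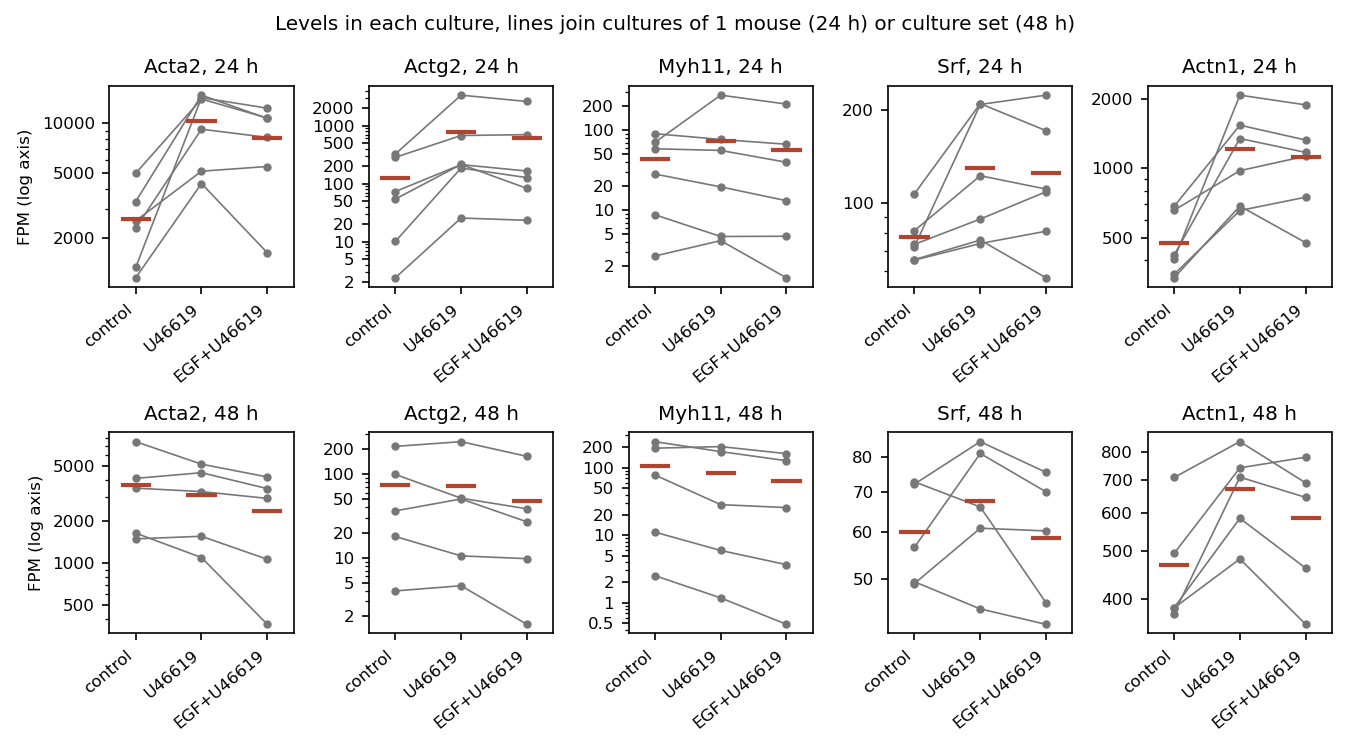
Levels of Acta2, Actg2, Myh11, Srf and Actn1 in control, U46619 and EGF+U46619 cultures after 24 h (top) and 48 h (bottom, EGF/U46619 batch), in FPM on a log axis, with a grey line per mouse or culture set and a red bar at the mean of each group. Acta2 and Actg2 are higher with U46619 than in control in 6 of 6 mice after 24 h, Myh11 in 2 of 6, and after 48 h Actn1 is higher in 5 of 5 culture sets.

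The genes of myosin and its regulation gave mixed values. Myh11 ranged from 2.68 to 90.9 FPM in control (median 43.6 FPM) and from 4.17 to 276 FPM with U46619 (median 37.9 FPM). The groups overlapped over nearly their whole range, and only mice 2 and 3 had more Myh11 with U46619. Its log2-fold change was 0.29 ± 0.47 (SE, edgeR FDR 0.667). Mylk, the kinase that phosphorylates the regulatory light chain, had −0.47 ± 0.41 (edgeR FDR 0.387), while that light chain, Myl9, had 0.87 ± 0.28 (edgeR FDR 0.0164) and the essential light chain Myl6 0.93 ± 0.25 (edgeR FDR 0.00438). Ppp1r14a and Ppp1r12b, an inhibitor and a subunit of myosin phosphatase, had 0.77 ± 0.39 (edgeR FDR 0.125) and −0.22 ± 0.20 (edgeR FDR 0.405).

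Of the thin filament genes, Tpm4, a tropomyosin of non-muscle filaments, ranged from 298 to 1338 FPM in control (median 763 FPM) and from 859 to 2293 FPM with U46619 (median 1531 FPM). Mice 1 and 3 were lowest in control, mouse 3 was lowest with U46619 and mouse 5 was highest in both groups, which overlapped. The log2-fold change of Tpm4 was 1.23 ± 0.25 (SE, edgeR FDR 0.000399). The muscle tropomyosin Tpm2 had 1.39 ± 0.27 (edgeR FDR 0.000282), the actin-binding Nexn 1.37 ± 0.26 (edgeR FDR 0.000187), caldesmon Cald1 0.94 ± 0.21 (edgeR FDR 0.000745), the filament nucleator Lmod1 0.84 ± 0.32 (edgeR FDR 0.0399) and Cnn2 0.61 ± 0.21 (edgeR FDR 0.0207). Without 1 mouse at a time, Lmod1 was called in 1 of 6 fits, Csrp1 in 3, Myl9 and Cnn2 in 4 and Srf in 5, while the other 9 genes were called in 6 of 6. Smtn, which encodes smoothelin, and Des, which encodes the intermediate filament desmin, had log2-fold changes of 0.22 ± 0.14 (edgeR FDR 0.236) and −0.28 ± 0.31 (edgeR FDR 0.506).

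At the adhesion sites, Actn1, the filament cross-linker alpha-actinin 1, ranged from 335 to 684 FPM in control (median 412 FPM) and from 657 to 2078 FPM with U46619 (median 1163 FPM). Only the U46619 culture of mouse 4 lay within the control range. The log2-fold change of Actn1 was 1.29 ± 0.21 (SE, edgeR FDR 5.12e-05). Pdlim7, an actin-associated PDZ-LIM protein, had 0.86 ± 0.18 (edgeR FDR 0.000543) and the LIM protein Csrp1 0.80 ± 0.27 (edgeR FDR 0.0238). The core adhesion genes vinculin (Vcl), zyxin (Zyx) and tensin (Tns1) and the LIM protein Tgfb1i1 were not called, with log2-fold changes from 0.17 to 0.38. The LIM protein Fhl2 ranged from 98.6 to 440 FPM in control (median 351 FPM) and from 122 to 440 FPM with U46619 (median 244 FPM). These ranges nearly coincided, and the log2-fold change was −0.13 ± 0.21 (SE, edgeR FDR 0.671), the only one below 0 in the general group.

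The largest decreases of the contractile group were not significant with U46619 alone in the fit of the 24 h cultures. Synpo2, an actin-bundling protein of the Z-disc and dense bodies, ranged from 3.57 to 29.7 FPM in control (median 12.1 FPM) and from 1.49 to 19.6 FPM with U46619 (median 5.26 FPM). Mice 1 and 4 had slightly more with U46619 and the other 4 had less. The log2-fold change was −0.74 ± 0.33 (SE, edgeR FDR 0.0766). Pdlim3, a PDZ-LIM protein that binds alpha-actinin, ranged from 1.23 to 8.47 FPM in control (median 2.76 FPM) and from 0.209 to 5.61 FPM with U46619 (median 2.28 FPM), and was lower in 5 of 6 mice. It stayed under the level needed for a call with a log2-fold change of −0.92 ± 0.53 (SE, edgeR FDR 0.177). In the edgeR fit of all 82 libraries, described below, the 24 h change of Synpo2 passed with −0.73 ± 0.27 (edgeR FDR 0.0249). That of Pdlim3 did not (−0.91 ± 0.45, edgeR FDR 0.0982). The integrin subunit Itga8 (0.06 ± 0.36, edgeR FDR 0.917) and Pgm5, a protein of the dystrophin complex and adhesions (−0.31 ± 0.25, edgeR FDR 0.341), were not called. The potassium channel subunit Kcnmb1 had 1.49 ± 0.49 (edgeR FDR 0.0171) but lay below 5 FPM.

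Of the regulators, Srf ranged from 65.3 to 107 FPM in control (median 72.8 FPM) and from 73.9 to 210 FPM with U46619 (median 106 FPM). Mice 2 and 5 were highest with U46619, mice 3 and 4 stayed close to their controls, and the groups overlapped. The log2-fold change of Srf was 0.62 ± 0.19 (SE, edgeR FDR 0.0105). Without mouse 5 the call was lost. Myocd lay between 0 and 3.01 FPM in control (median 0.415 FPM) and between 0.05 and 1.62 FPM with U46619 (median 0.372 FPM). It was near the limit of detection in both groups, higher in 3 mice and lower in 3, with a log2-fold change of −0.37 ± 0.70 (SE, edgeR FDR 0.71).

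**Figure D3:**
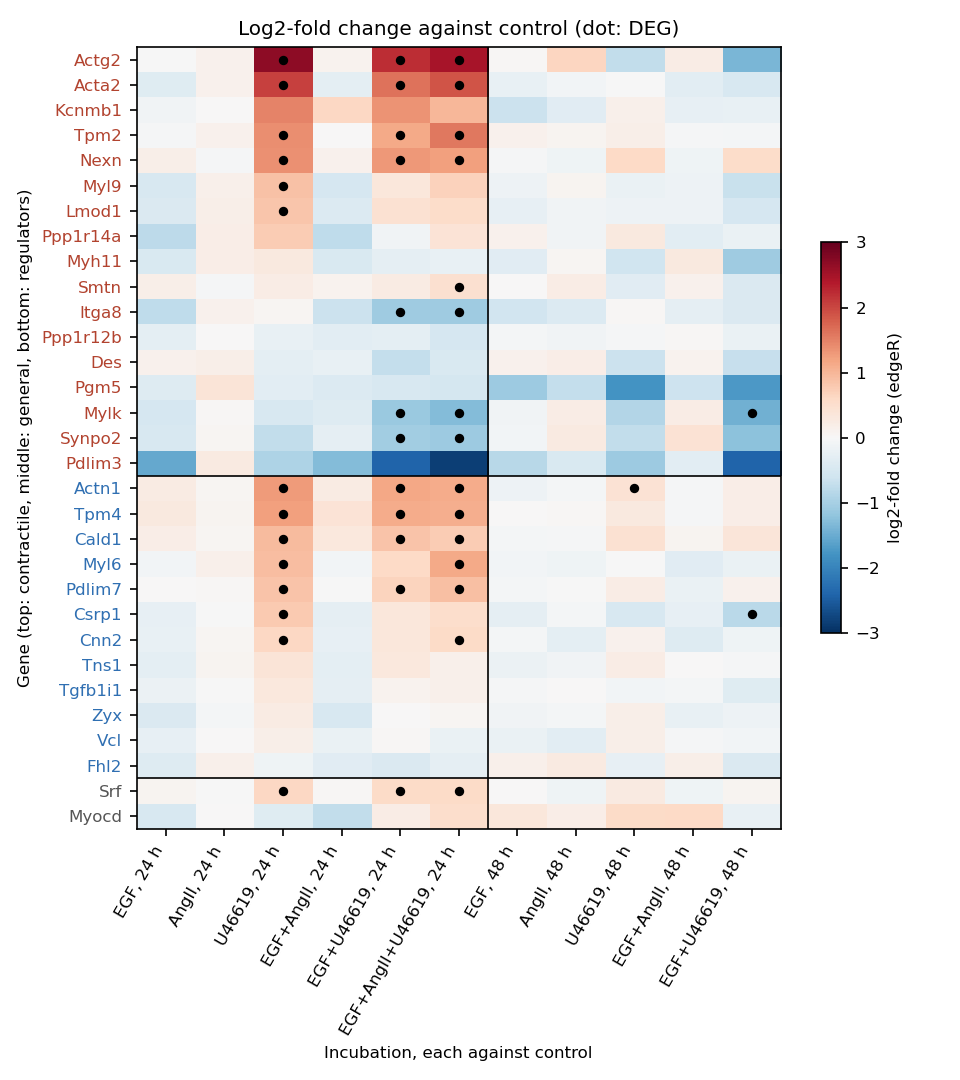
Log2-fold changes against control of the 31 fitted genes (rows) for 6 incubations after 24 h and 5 after 48 h (columns), as a color scale from −3 to 3 with blue below 0 and red above, and a dot for each DEG. The dots of the 24 h columns stand with the 3 incubations that held U46619, and those of the 48 h columns are Actn1 with U46619 and Csrp1 and Mylk with EGF+U46619.

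The size of the difference from control varied over the cultures of the 6 mice. A difference between mice was not tested, as each mouse had 1 culture per incubation. The median log2 difference between the U46619 and the control culture of the same mouse, taken over 17 contractile genes, was 0.598, 0.911, 0.556, −0.004, 0.355 and 0.213 in mice 1 to 6. Over the 12 general genes it was 1.11, 1.25, 0.523, 0.141, 0.608 and 0.338. Mice 1 and 2 were highest for the general genes and mouse 4 was lowest for both groups. Fibroblast markers were lower in the same cultures. Their summed level was 699, 1077, 3507, 664, 1399 and 612 FPM in the control cultures of mice 1 to 6 and 254, 238, 2235, 386, 552 and 530 FPM with U46619, lower in 6 of 6 mice, and 6 of the 7 markers fitted (Col14a1, Pdgfra, Ly6a, Dpt, Pi16 and Dcn, chosen after their values were seen) were DEGs with lower expression. Endothelial markers summed to between 4.85 and 1760 FPM in control and between 2.64 and 1605 FPM with U46619, with 0 of 5 markers called by edgeR and DESeq2. Leukocyte markers summed to between 21.8 and 117 FPM and between 24 and 79.4 FPM, with Lyz2 (−1.31) and Cd14 (−0.86) called lower and Csf1r (1.08) called higher, all named after their values were seen. The part of these cells in the changes of the 32 genes was not tested.

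Pathway genes outside the list were also read. Of 36 fitted genes for other parts of the actin cytoskeleton and adhesions, 24 rose with U46619 after 24 h, beside 18% of all genes tested. In this list 3 genes fell (Ablim1, Pxn and Sorbs3, named after their values were seen), beside 19.4%. The median log2-fold change of the list was 0.65. The increases with the smallest FDR were Ankrd1, a stretch-responsive nuclear protein (4.50 ± 0.74, edgeR FDR 4.83e-05), the actin-severing cofilin 2, Cfl2 (1.15 ± 0.20, edgeR FDR 7.32e-05), and the fibronectin receptor subunit Itga5 (1.83 ± 0.35, edgeR FDR 0.000201). Of 9 immediate-early genes that could be called, 2 were higher, Ier3 (1.26, edgeR FDR 0.000508) and Junb (0.99, edgeR FDR 0.00236), and 1 was lower, Egr3 (−1.29, edgeR FDR 0.0302). The counts of immediate-early genes are near the shares of all genes, 18% and 19.4%. With EGF+U46619, where 22.6% of all genes tested were higher and 22% lower, the counts were 19 higher and 3 lower of 36, and 2 higher and 0 lower of 9, the latter again near the share of all genes that were higher.

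With EGF+U46619 both smooth muscle actins and 4 of the 12 general genes were higher than in control, and 3 contractile genes were lower. The DEGs were 9 of 28 with higher expression, beside 22.6% of all genes tested, and 3 of 28 with lower expression, beside 22%. Median log2-fold changes were −0.10 over the contractile genes and 0.34 over the general genes, beside −0.05 over all genes. Acta2 ranged from 1631 to 12297 FPM with a median of 9416 FPM and was higher than control in 6 of 6 mice (log2-fold change 1.62 ± 0.39, edgeR FDR 0.00127). Actg2 ranged from 23.3 to 2593 FPM with a median of 146 FPM (2.22 ± 0.41, edgeR FDR 8.56e-05). Actn1 (1.16), Tpm4 (1.12), Tpm2 (1.13), Nexn (1.31), Cald1 (0.85), Pdlim7 (0.66) and Srf (0.58) completed the genes that rose, with Srf between 57.2 and 224 FPM and below control in mouse 3.

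The 3 genes that fell with EGF+U46619 were Synpo2, Mylk and Itga8. Synpo2 ranged from 0.92 to 13.4 FPM with a median of 5.77 FPM and was lower than control in 5 of 6 mice, the exception being mouse 4 (−1.03 ± 0.33, edgeR FDR 0.0129). Mylk, from 16.1 to 556 FPM in control (median 53.8 FPM) and from 2.81 to 401 FPM with EGF+U46619 (median 31.6 FPM), was lower in 6 of 6 mice (−1.10 ± 0.42, edgeR FDR 0.0329), with mouse 5 highest in both groups. Itga8 was also lower in 6 of 6 (−1.07 ± 0.36, edgeR FDR 0.0189). Without 1 mouse at a time, Mylk was called in 2 of 6 fits and Itga8 and Synpo2 in 4. Pdlim3 had the largest negative log2-fold change (−2.40 ± 0.58, edgeR FDR 0.00149), but its control level of 3.95 ± 3.03 FPM (SD, n = 6) kept it from being a DEG, and it lay between 0 and 2.48 FPM with EGF+U46619 (median 0.583 FPM). Myh11, between 1.43 and 213 FPM (median 26.5 FPM), had −0.28 ± 0.47 (edgeR FDR 0.669) and was lower in 5 of 6 mice. Myocd, between 0 and 2.36 FPM (median 0.538 FPM), and Fhl2, between 113 and 324 FPM (median 195 FPM), were not called. The fibroblast markers were lower here too, with 7 of 7 called, and their part was not tested.

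EGF+AngII+U46619 gave 12 of 28 genes with higher expression, beside 24.5%, and 3 with lower expression, beside 21.8%. The median log2-fold changes were 0.41 over the contractile and 0.56 over the general genes. Acta2 ranged from 3185 to 15164 FPM (median 8829 FPM) and Actg2 from 19.5 to 3111 FPM (median 190 FPM), with mouse 2 highest for both genes. Tpm2 (1.58 ± 0.28, edgeR FDR 3.48e-05), Actg2 (2.46 ± 0.41, edgeR FDR 1.91e-05), Myl6 (1.14 ± 0.25, edgeR FDR 0.000487) and Acta2 (1.88 ± 0.39, edgeR FDR 0.000273) were among those that rose, as was Smtn (0.48 ± 0.14, edgeR FDR 0.00636). Those that fell were Mylk (−1.31), Itga8 (−1.08) and Synpo2 (−1.09). Without 1 mouse at a time, Itga8 was called in 3 of 6 fits, Smtn in 4 and Synpo2 and Mylk in 5, with a log2-fold change of −0.88 for Mylk without mouse 3. Myl6 was called in 6 of 6, with log2-fold changes from 0.71 to 1.32. The EGF+AngII+U46619 culture of mouse 3 stood apart, with 7353 FPM of Myl6, 1307 FPM of Tpm2 and 1.89 FPM of Vcl. The EGF+U46619 culture of that mouse had 1266, 334 and 228 FPM of these genes. Compared directly with EGF+U46619, 0 members were DEGs, beside 0% of all genes tested, 1 passed an unadjusted p of 0.05 in edgeR and DESeq2, and the median log2-fold change was 0.05. An effect of AngII on top of the other agents was therefore not detected in these genes.

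U46619 added to EGF was compared with EGF alone to see what it did in the presence of the growth factor. Of 28 genes, 10 were higher, beside 9.5%, and 0 were lower, beside 8.68%. They were Acta2 (1.99 ± 0.40, edgeR FDR 0.00102), Actg2 (2.22 ± 0.41, edgeR FDR 0.000565), Nexn (1.13), Tpm2 (1.15), Myl9 (0.82), Actn1 (0.92), Cald1 (0.65), Pdlim7 (0.65), Tns1 (0.62) and Tpm4 (0.82). The median was 0.18 over the contractile genes and 0.61 over the general genes. Without mouse 1, 2 or 4 the count was 5, 4 or 5, and the share of all genes in these fits is not given. EGF added to U46619 gave 0 DEGs among the members, beside 0%, and 3 genes (Itga8, Ppp1r14a and Pdlim3) with an unadjusted p below 0.05 in edgeR and DESeq2. Log2-fold changes lay below 0 for 29 of 31 genes, 16 of 17 contractile and 12 of 12 general, with medians of −0.43 and −0.21 beside 0.01 over all genes. The interaction of EGF and U46619, which asks whether the combined effect departs from the sum of both on the log2 scale, gave 0 DEGs beside 0%, with 0 genes at an unadjusted p below 0.05 in edgeR and DESeq2 and a median of −0.08 beside 0.03.

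The agents other than U46619 gave no DEG among the 32 genes after 24 h. For EGF the background was 0.0386% of all genes, and 2 members passed an unadjusted p of 0.05 in edgeR and DESeq2. This share depended on the fit. In the edgeR fit of all 82 libraries described below, 1200 of 14528 genes had an FDR below 0.05 with EGF after 24 h. Pdlim3, under 5 FPM, was among them (−1.53 ± 0.47, edgeR FDR 0.0313). In the 24 h fit, 23 of 31 log2-fold changes lay below 0, with a median of −0.39 over the contractile genes and −0.20 over the general genes, beside −0.03. Acta2 ranged from 352 to 8497 FPM with EGF (median 1513 FPM) and was lower than control in 4 of 6 mice. For AngII the background was 0%, with 0 members at an unadjusted p below 0.05 in edgeR and DESeq2, and the median was 0.07 beside −0.01. For EGF+AngII 4.39% of all genes were called and 0 members, with 1 at an unadjusted p below 0.05 in edgeR and DESeq2 and a median of −0.27 beside −0.03. EGF+AngII against EGF gave 0 members beside 0%, and 0 at an unadjusted p below 0.05 in edgeR and DESeq2.

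After 48 h the increase of the actins was not seen. The number of DEGs depended on the block. With each culture set as a block, 4 members were called with U46619, beside 14.8% of all genes, and 10 with EGF+U46619, beside 20.7%, as given below. The values that follow have the mouse numbers of the labels as blocks unless another block is named. With U46619, 1 of 28 genes rose, beside 3.44% of all genes, and 0 fell, beside 2.15%. This gene was Actn1, with 309 to 709 FPM in the 10 control cultures (median 504 FPM) and 743, 585, 711, 841 and 483 FPM in the U46619 cultures of culture sets 1 to 5 of the EGF/U46619 batch. Of these 5, 3 lay above every control and 2 within the control range, and each was above the control of its own set, which had 495, 383, 373, 709 and 383 FPM. The log2-fold change was 0.42 ± 0.12 (SE, edgeR FDR 0.0355), and it was called in 4 of 10 fits without 1 culture set. The median over the members was −0.02, from −0.21 over the contractile to 0.18 over the general genes, beside −0.03 over all genes.

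With EGF+U46619 after 48 h, 0 of 28 genes rose, beside 5.32%, and 2 fell, Csrp1 and Mylk, beside 4.17%. Csrp1 ranged from 279 to 1157 FPM in control (median 814 FPM) and had 618, 257, 481, 590 and 180.7 FPM with EGF+U46619. All 5 lay below the controls of their own sets (847, 387, 781, 1157 and 328 FPM), and 3 lay within the control range. The log2-fold change of Csrp1 was −0.82 ± 0.20 (SE, edgeR FDR 0.00872), and it was called in 10 of 10 fits without 1 culture set. Mylk ranged from 20.4 to 187.6 FPM in control (median 58.0 FPM) and had 37.1, 5.28, 66.1, 49.9 and 9.05 FPM with EGF+U46619, again below control in every set (115, 20.4, 106, 124 and 21.3 FPM). Its log2-fold change was −1.44 ± 0.46 (edgeR FDR 0.0497), and it was called in 2 of 10 such fits. The median was −0.50 over the contractile genes, with 16 of 17 below 0, and −0.10 over the general genes.

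Acta2 had between 515 and 7500 FPM in the 48 h controls (median 1808 FPM), 3277, 1563, 4483, 5164 and 1099 FPM with U46619 and 2927, 1067, 3443, 4177 and 363 FPM with EGF+U46619. Set 4 was highest and set 5 lowest in both groups, and both groups overlapped with control, whose values in the same sets were 3469, 1497, 4080, 7500 and 1647 FPM. The log2-fold changes were −0.02 ± 0.40 (edgeR FDR 0.984) and −0.49 ± 0.41 (edgeR FDR 0.471). Actg2 had between 3.25 and 215 FPM in control (median 38.5 FPM), 10.5, 245, 50.5, 51.6 and 4.62 FPM with U46619 and 9.74, 163.2, 26.9, 38.5 and 1.60 FPM with EGF+U46619. Set 2 stood far above the others in control as well, with 215 FPM. With the mouse numbers of the labels as blocks, neither difference was significant (−0.74 ± 0.68, edgeR FDR 0.536, and −1.38 ± 0.69, edgeR FDR 0.217). The values depended on the block. With each culture set as a block, that with U46619 was −0.05 ± 0.23 (edgeR FDR 0.926), and 3 of 5 sets had more Actg2 with U46619 than in control. With EGF+U46619 and this block, Acta2, Actg2 and Myh11 were DEGs with lower expression. Myh11 had between 0.843 and 269 FPM in control (median 29.9 FPM), 28.3, 5.94, 205, 172.6 and 1.18 FPM with U46619 and 25.6, 3.66, 160.97, 126 and 0.479 FPM with EGF+U46619. Sets 3 and 4 were high and sets 2 and 5 low in each group (−0.61 ± 0.83, edgeR FDR 0.699, and −1.06 ± 0.85, edgeR FDR 0.449).

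Tpm4 had between 650 and 1790 FPM in control (median 1004 FPM), 1364, 1147, 1612, 1773 and 1076 FPM with U46619 and 1297, 1089, 1583, 1742 and 854 FPM with EGF+U46619. The treated cultures lay within the control range (0.29 ± 0.21, edgeR FDR 0.411 with U46619). Fhl2 had between 57.9 and 428 FPM in control (median 194 FPM), 160.5, 183.03, 285, 255 and 202 FPM with U46619 and 166.8, 158.2, 244, 243 and 138 FPM with EGF+U46619, also within the control range (−0.25 ± 0.47, edgeR FDR 0.786 with U46619). Srf had between 43.0 and 72.7 FPM in control (median 50.7 FPM), 60.8, 44.6, 81.0, 84.8 and 66.0 FPM with U46619 and 60.2, 42.1, 69.9, 75.4 and 45.7 FPM with EGF+U46619. Sets 3 and 4 exceeded every control with U46619, but the difference was not significant (0.27 ± 0.13, edgeR FDR 0.207), nor was that with EGF+U46619 (0.08 ± 0.13, edgeR FDR 0.748). Myocd had between 0 and 1.14 FPM in control (median 0.358 FPM), 1.02, 0.874, 0.112, 0.687 and 0.283 FPM with U46619 and 1.11, 0.433, 0.0387, 0.254 and 0.0399 FPM with EGF+U46619, all too low for a call. Each U46619 culture exceeded the control of its set, by amounts of under 1 FPM.

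Synpo2 and Pdlim3 were below the control of their own set in all 5 sets with both incubations. Synpo2 had between 0.843 and 36.7 FPM in control (median 11.0 FPM), 10.5, 3.36, 12.8, 19.6 and 1.32 FPM with U46619 and 9.55, 2.68, 9.59, 10.5 and 0.997 FPM with EGF+U46619. In the controls of the same sets Synpo2 was 16.2, 7.29, 17.9, 31.8 and 2.67 FPM, and the fit gave −0.74 ± 0.47 (edgeR FDR 0.354) and −1.23 ± 0.48 (edgeR FDR 0.108). Pdlim3 had between 0.464 and 4.06 FPM in control (median 2.93 FPM), 2.53, 0.552, 2.02, 0.593 and 0.943 FPM with U46619 and 1.30, 0.118, 0.85, 0.413 and 0.279 FPM with EGF+U46619, where 4 of 5 values lay under 1 FPM. The log2-fold change with EGF+U46619 was −2.41 ± 0.39 (edgeR FDR 0.000256), but at these levels Pdlim3 could not be called.

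The tests after 48 h treated the 5 mouse numbers of the labels as blocks, and the numbers were spread unevenly: number 7 covered 5 culture sets of both batches, number 10 covered 1 set of each batch, and numbers 8, 9 and 11 covered 1 set each. With each of the 10 culture sets as a block of its own, 4 members were DEGs with U46619 (Actn1 and Cald1 higher, Mylk and Synpo2 lower), beside 14.8% of all genes. With EGF+U46619 there were 10, all lower, beside 20.7%: Acta2 (−0.63, edgeR FDR 0.0264), Actg2 (−0.74, edgeR FDR 0.0289), Csrp1, Lmod1, Myh11, Myl9, Mylk (−1.29, edgeR FDR 9.19e-05), Smtn, Synpo2 (−1.16, edgeR FDR 3.12e-05) and Tgfb1i1. Within the EGF/U46619 batch alone, 6 members were called with U46619, beside 15.4% of all genes, and 7 with EGF+U46619, beside 21.4%, among them Synpo2 in both comparisons. Without the control of culture set 4 of the EGF/AngII batch, Actn1 remained called with U46619 and Csrp1 with EGF+U46619, while Mylk was not.

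EGF+U46619 against EGF gave 0 members after 48 h, beside 6.68%, with 9 at an unadjusted p below 0.05 in edgeR and DESeq2, and 8 with the culture sets as blocks, beside 18.2% (Actn1 and Cald1 higher; Csrp1, Myh11, Mylk, Smtn, Synpo2 and Tgfb1i1 lower). Against U46619 alone, EGF+U46619 gave 0 members beside 0%, with 1 at an unadjusted p below 0.05 in edgeR and DESeq2. Its log2-fold changes lay below 0 for 30 of 31 genes, with a median of −0.28 beside 0.00. The interaction gave 0 members beside 0%, with 0 at an unadjusted p below 0.05 in edgeR and DESeq2 and a median of −0.11. EGF, AngII and EGF+AngII against control each gave 0 members beside 0%, with 1, 0 and 0 at an unadjusted p below 0.05 in edgeR and DESeq2. Outside the list, 35 other actin and adhesion genes could be called. With U46619, 3 of them rose (Flnc, Myh9 and Tes, named after their values were seen), beside 3.44% of all genes, and 0 fell, beside 2.15%. With EGF+U46619, 3 rose, beside 5.32%, and 3 fell, beside 4.17%. In the EGF/U46619 batch, summed fibroblast markers were 726 to 3840 FPM in control, 481 to 2695 FPM with U46619 and 541 to 2440 FPM with EGF+U46619, below the control of the same set in 5 of 5 sets with both incubations. Endothelial markers were 19.8 to 870, 16.2 to 799 and 8.37 to 892 FPM and leukocyte markers 58.4 to 145.8, 43.6 to 80.7 and 41.3 to 77.3 FPM. The controls of the EGF/AngII batch reached 2073 FPM of endothelial and 636 FPM of leukocyte markers. Its set 4 control had 2046 FPM of endothelial, 640 FPM of fibroblast and 41.7 FPM of leukocyte markers. The treated cultures of set 4 had 266 to 278, 4075 to 4808 and 146.7 to 160.2 FPM. Those of set 2 had 1918 to 2163, 610 to 671 and 42.9 to 43.5 FPM. The set 2 control had 1318, 801 and 239 FPM. The part of these cells was not tested.

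To compare the time points directly, the difference between the 24 h and the 48 h response was tested in 1 edgeR fit of all 82 libraries with the culture set as block. With U46619, 7 members had a larger log2-fold change after 24 h, beside 3.05% of 14528 genes that differed in either direction. The differences were 2.71 ± 0.50 for Actg2 (SE, edgeR FDR 0.00617), 2.13 ± 0.46 for Acta2 (edgeR FDR 0.0133), 1.24 ± 0.34 for Tpm2 (edgeR FDR 0.0347), 1.15 ± 0.32 for Csrp1 (edgeR FDR 0.0349), 1.02 ± 0.30 for Myl6 (edgeR FDR 0.0468), 0.98 ± 0.28 for Tpm4 (edgeR FDR 0.0415) and 0.85 ± 0.25 for Actn1 (edgeR FDR 0.0468). With EGF+U46619, 7 members differed, beside 7.8%: Actg2 by 2.96 ± 0.50 (edgeR FDR 0.00138), Acta2 by 2.25 ± 0.46 (edgeR FDR 0.00504), Tpm2 by 1.22, Csrp1 by 1.03, Tpm4 by 0.97, Actn1 by 0.94 and Smtn by 0.55. The count with U46619 was 11 without mouse 3 and 0 without set 4 of the EGF/U46619 batch. That with EGF+U46619 was 2 to 15 without 1 mouse or culture set. The shares of all genes in these fits are not given. The time points differed in mice and sequencing runs as well, and time cannot be told apart from these.

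**Figure D4:**
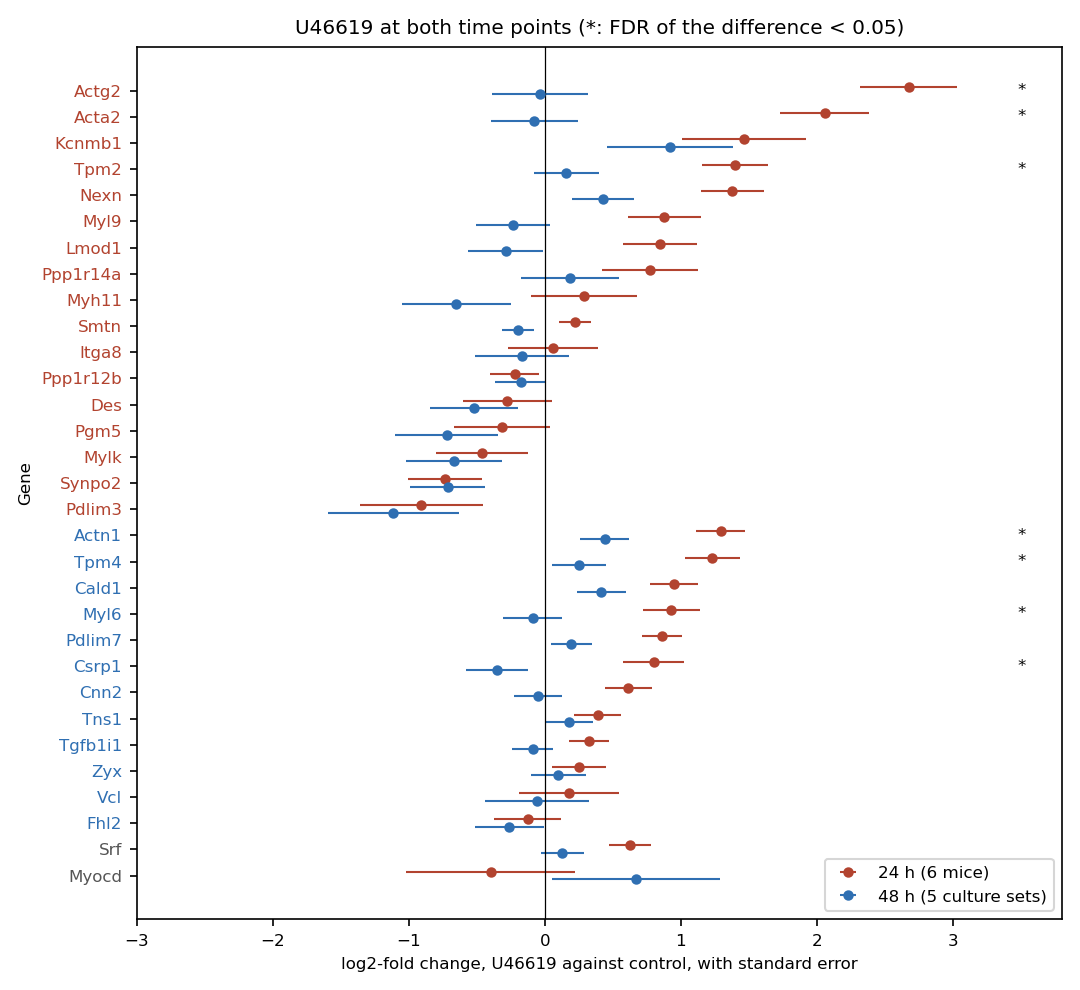
Log2-fold changes with U46619 against control of the 31 fitted genes (rows) after 24 h (red, 6 mice) and 48 h (blue, 5 culture sets), each with its SE, from the fit of all 82 libraries, and a star where the difference between them had an FDR below 0.05. The 7 stars stand at Actg2, Acta2, Tpm2, Actn1, Tpm4, Myl6 and Csrp1, and Acta2 and Actg2 lie at −0.08 and −0.04 after 48 h.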

How the data were processed

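RNA-sequencing libraries of polyA-enriched RNA from 82 cultures of primary mouse aVSMC were analysed, 42 after 24 h and 40 after 48 h. The authors aligned the reads with HISAT2 (2.1.0) to mm10 and counted reads per gene with featureCounts, keeping those that map to more than 1 place, and deposited the raw counts. All 55401 genes were read, and the tests cover those past the filters given below. The 32 genes and the other lists were chosen with earlier results of these data known.

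Counts were fitted per time point in R (4.3.3) with edgeR (4.0.16, quasi-likelihood) and DESeq2 (1.42.0, Wald test) on all groups, with the mouse number of the labels as a block. The filter filterByExpr kept 14653 genes after 24 h and 15796 after 48 h. A DEG needed an FDR (Benjamini-Hochberg) below 0.05 in both tools, 5 FPM on average in 1 compared group and a pass of the filter at both times. Log2-fold changes and FDR are edgeR's. Each SE was derived as the absolute log2-fold change divided by the square root of edgeR's F statistic. Tests were two-sided. The number of genes tested in a comparison is that of genes past the filters and the level of 5 FPM.

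Within a mouse, deviations from the group means correlated over 0.1 in 126 of 126 pairs after 24 h (median r 0.776). After 48 h this held in 57 of 60 pairs within a culture set (median r 0.809), and the other 3 pairs all held the control of set 4 of the EGF/AngII batch. The labels number 5 mice for these 10 sets, the methods give each replicate a mouse of its own, and both fits are given. After 24 h the labels give 1 culture per mouse and group, and p-values measure the spread between these mice. After 48 h, number 7 of the labels covers 5 sets, so that p-values there also hold the spread between culture sets of 1 number. Library totals of at least 16483529 counts set the precision of low levels. A gene with 1 count in such a library lies far below 5 FPM.

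All 32 genes are named. Single values or ranges over the cultures are given, for the groups described, for Acta2, Actg2, Myh11, Myocd and Srf. The same holds for the contractile and general genes with the largest increases and decreases with U46619 after 24 h. Of the pathway lists, up to 3 genes with the smallest FDR are named. The results of 1 pathway list are not reported here. The joint fit of both times was added after the data were seen, as was the fit without the control of set 4. Alternatives were other tools and scalings, filters, blocks, batches and leaving out each replicate. Calls were tested on simulated data. Promoters and CArG boxes were read from RefSeq promoters (GRCm38.p6, 250 bases before to 50 after a start) with Python (3.11.15). The search motif was the CArG consensus by name, on both strands. Positions and lengths of genes come from GENCODE for the same build. Tables and figures used pandas (2.3.3), NumPy (2.4.6) and Matplotlib (3.10.9).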

Additional observations from a re-analysis of the deposited data

Results flagged for a closer look

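Outlying values were sought for Acta2, Actg2, Myh11, Myocd, Srf and the genes with the largest increases and decreases with U46619 after 24 h. Chance gives an outlying value in about 1 of 20 groups. Among 130 groups of 4 to 10 cultures, 3 values stood apart by Dixon's criterion. Srf in the EGF+AngII culture of mouse 5 after 24 h had 145 FPM, while the other 5 cultures lay between 62.2 and 74.0 FPM. In the EGF+AngII+U46619 culture of mouse 3 after 24 h, Synpo2 had 0.226 FPM beside 3.94 to 10.9 FPM, and Tpm4 had 387 FPM beside 1579 to 1986 FPM.

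The responses at the time points differed. With EGF+U46619, Acta2 and Actg2 were higher than control in 6 of 6 mice after 24 h, with mean log2 differences per culture of 1.57 and 2.12, and lower in 5 of 5 culture sets after 48 h, with −0.80 and −0.83. In the edgeR test of the difference between the times (24 h minus 48 h, log2-fold change), with U46619 the difference was 2.71 for Actg2, 2.13 for Acta2, 1.24 for Tpm2, 1.15 for Csrp1, 1.02 for Myl6, 0.98 for Tpm4 and 0.85 for Actn1. With EGF+U46619 it was 2.96 for Actg2, 2.25 for Acta2, 1.22 for Tpm2, 1.03 for Csrp1, 0.97 for Tpm4, 0.94 for Actn1 and 0.55 for Smtn. Time cannot be told apart from the mice and the sequencing runs.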

How the results depend on the processing

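The counts of members called by edgeR and DESeq2 changed with the block and, after 48 h, with the batches fitted. The share of all genes called is given above for the culture-set block. It is also given for the EGF/U46619 batch alone, with U46619 and EGF+U46619 against control. For the other settings it is not given, so the counts do not show whether the members changed more than all genes. Without the mouse as replicate block, U46619 after 24 h gave 4 members in place of 14, EGF+U46619 1 in place of 12, EGF+AngII+U46619 5 in place of 15 (5 also when only these 2 groups were fitted) and EGF+U46619 against EGF 0 in place of 10. Leaving out each mouse gave 10 to 13, 8 to 13, 11 to 16 and 4 to 13 members in these comparisons. After 48 h, U46619 gave 1 member, 4 with the culture set as replicate block, 6 in 1 batch alone and 0 with batch as a further term, with no block, with no filter on low values or with only the 2 groups fitted. EGF+U46619 gave 2 members, 10 with the culture set as block, 7 in 1 batch alone, 1 with batch as a term or without the control of set 4 of the EGF/AngII batch, and 0 with no block or only the 2 groups. EGF+U46619 against EGF gave 0 members, 8 with the culture set as block, 5 in 1 batch alone, 2 with DESeq2 alone, and 1 with no FPM minimum, no filter or without that control. Leaving out each culture set gave 0 to 1, 1 to 2 and 0 to 2 members. The count with U46619 was 0 without set 1, 2, 3 or 4 of the EGF/U46619 batch or set 2 or 6 of the EGF/AngII batch. The 7 members that differed between the times were 3 for U46619 and 3 for EGF+U46619 without the EGF/AngII batch, and 0 to 11 and 2 to 15 when a mouse or culture set was left out, both highest without mouse 3. CArG boxes lay in 6 members and in 10 with 1 base off. No value of a called gene changed direction under these alternatives, and the comparisons with 0 calls other than EGF+U46619 against EGF after 48 h kept 0. With DESeq2's size factors in edgeR, 589 of 589 gene results kept their side of the threshold. The causes were not tested. Levels under 5 FPM, as for Myocd, Pdlim3, Kcnmb1 and Pln, were too low for a call at this depth.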

Other observations

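EGF alone gave no DEG among the 32 genes after 24 h, and the medians of its differences from control were not of 1 direction over the mice. Of single genes, Tpm4 was higher in 6 of 6 mice and Tns1 and Ppp1r12b were lower in 6 of 6. The median log2 difference over 17 contractile genes was −1.03, −0.64, −1.20, −0.10, 0.27 and 0.09 in mice 1 to 6, and over the 12 general genes it was −0.26, −0.36, −0.57, −0.26, 0.45 and 0.10. With EGF, Acta2 was 1392 FPM beside 3335 FPM in control in mouse 1, 696 beside 1329 FPM in mouse 2, 352 beside 1149 FPM in mouse 3 and 1633 beside 2300.5 FPM in mouse 4. It was 8497 FPM beside 4949 FPM in mouse 5 and 3305 FPM beside 2547 FPM in mouse 6. Myh11 had 15.5 FPM with EGF beside 58.9 FPM in mouse 1 and 110 FPM beside 90.9 FPM in mouse 5. The difference between mice was not tested, as each mouse had 1 culture per incubation.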
